A study of Mus musculus with 4 samples.

Results

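Penk and Ebi3 encode proteins that regulatory T cells (Tregs) can secrete. The RNA of both was lower in Tregs labelled as MLL1 knockout than in Tregs labelled as wild type. The pair was chosen by gene symbol and makes up 2 of the 282 genes in the deposited table. The cells were Tregs from the spleen and the lymph nodes, and the mice were males aged 6 to 8 weeks. Every mouse carried Foxp3RFP-Cre, a RosaYFP reporter and floxed alleles of Mll1 (Kmt2a), a histone methyltransferase gene. Cre was thus driven by Foxp3, and RFP marked the Foxp3-expressing cells. RFP+YFP+ cells, in which Cre had acted on the reporter, carried the label MLL1KO, and RFP+YFP- cells carried the label WT. There were 2 libraries of each, 1 per group under each of mouse numbers 1 and 2. Whether a mouse number is 1 animal or a pool is not in the labels, so p-values are not a measure of the spread between animals. The limma p-values below rest on the spread between these libraries, pooled in large part across the listed genes.

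The table lists genes that the authors had selected on this same comparison, and in the authors' deposited table all of them had adjusted p-values under 0.05 and log2 fold changes beyond 1 in size. Penk and Ebi3 could therefore only appear here as changed genes, and the tests below are not independent evidence of their change. Of the 282 genes, 196 were lower and 86 higher in YFP-positive Tregs. The listed genes held between 196337 and 329350 reads per library, inferred from the smallest step between values. These sums are not the depth of the libraries, which a list of selected genes does not give. Kmt2a and Foxp3 were not analysed here, and Gpr83 was the 1 of 8 Treg markers with a value. Neither the deletion nor the cell type could thus be checked. Gpr83 was higher in YFP-positive Tregs, at normalized counts of 5443 and 4259 in mice 1 and 2. In YFP-negative Tregs it stood at 1752 and 1442.

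Penk encodes proenkephalin, a precursor that convertases cut next to paired basic residues to release the opioid peptides Met-enkephalin and Leu-enkephalin. These peptides act on the delta and mu opioid receptors, and Tregs are among the immune cells known to express Penk. Ebi3, first found as a gene induced by Epstein-Barr virus in B cells, encodes a soluble cytokine-receptor-like subunit of the interleukin-12 family. It pairs with the p28 subunit, encoded by Il27, in interleukin-27 and with p35, encoded by Il12a, in interleukin-35, a cytokine associated with Treg-mediated suppression. MLL1 methylates histone H3 at lysine 4 and carries a CXXC domain that binds unmethylated CpG sites.

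Penk (ENSMUSG00000045573) lies on the minus strand of chromosome 4, from 4133531 to 4138819 in the mm10 build. The same coordinates appear in the GENCODE M21 annotation, which gives it 2 transcripts, of 2 and 3 exons. The coding sequence of the 2-exon transcript, of 268 codons, was searched for the 5-residue enkephalin sequences. It held 7 in-frame copies, 6 of Met-enkephalin and 1 of Leu-enkephalin, all in exon 2. They are shown because the gene measured here encodes them, and which peptides are released was not measured. Each line gives a copy in order along the transcript, 5′ to 3′, with its 5 codons in capitals and 2 flanking codons on each side in lower case.

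Met-enkephalin, copy 1: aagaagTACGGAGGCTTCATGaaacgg
Met-enkephalin, copy 2: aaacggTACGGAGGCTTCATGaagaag
Met-enkephalin, copy 3: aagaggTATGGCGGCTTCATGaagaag
Met-enkephalin, copy 4: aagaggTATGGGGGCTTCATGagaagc
Met-enkephalin, copy 5: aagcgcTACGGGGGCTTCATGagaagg
Leu-enkephalin, copy 6: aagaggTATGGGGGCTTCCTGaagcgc
Met-enkephalin, copy 7: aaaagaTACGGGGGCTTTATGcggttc

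All 7 copies followed 2 codons for basic residues, and 5 of the 7 were also followed directly by 2 such codons. Copies 4 and 7 were not, so the names above describe the codons in capitals and not a released peptide. The 7 copies used 6 different 15-base sequences, and copies 1 and 2 were identical in their capitals. They lie between positions 4133848 and 4134348 of chromosome 4.

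Ebi3 (ENSMUSG00000003206) lies on the plus strand of chromosome 17, from 55952640 to 55957022, with 5 exons in its 1 GENCODE M21 transcript. RefSeq, in build GRCm38.p6, starts the gene 17 bases earlier, at 55952623. The 250 bases before that start, chr17:55952373-55952622 on the plus strand, are printed because MLL1 is known to act at promoters. Capitals mark a match to the NF-kB kappa B consensus and, nearer the start, a match to the ETS core.

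Ebi3 promoter: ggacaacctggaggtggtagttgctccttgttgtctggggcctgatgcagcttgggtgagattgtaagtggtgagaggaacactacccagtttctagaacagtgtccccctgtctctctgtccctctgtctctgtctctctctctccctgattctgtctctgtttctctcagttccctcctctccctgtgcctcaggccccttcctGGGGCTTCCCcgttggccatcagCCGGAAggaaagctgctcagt

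Motifs were searched on both strands, and the 2 matches do not overlap. The NF-kB kappa B consensus was present in 3.90% of 32851 RefSeq windows of the same length, and the ETS core (CCGGAA), which was picked with this sequence in view, in 12.03%. The AP-1 motif (TGANTCA) and the cyclic AMP response element (TGACGTCA), found in 6.75% and 1.55% of windows, had no match in this one. The window held 2 CpG sites, against a median of 6 over all windows (quartiles 2 and 16). No chromatin measurement was part of these data, so the matches describe the sequence alone.

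Penk stood at a normalized count of 2191 in YFP-positive mouse 1 and 3853 in YFP-positive mouse 2. In YFP-negative Tregs it stood at 15578 in mouse 1 and 17208 in mouse 2. Both YFP-positive libraries were thus well below both YFP-negative libraries, with no overlap. The groups averaged 3022 ± 1175 and 16393 ± 1153 (SD, n = 2 each), so that the YFP-positive level was 18.4% of the YFP-negative level. On the log2(value + 1) scale, Penk fell by 2.49 ± 0.42 (SE), with an adjusted p of 2.09e-06 by limma with Benjamini-Hochberg adjustment. The authors' deposited table gives a log2 fold change of -2.44 and an adjusted p-value of 4.6e-10. In bulk RNA from sorted cells, fewer Penk-expressing cells and less Penk RNA per cell cannot be told apart.

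Ebi3 was counted at 449 in YFP-positive mouse 1 and 638 in YFP-positive mouse 2. Its YFP-negative values were 1408 in mouse 1 and 1215 in mouse 2. Here too the groups did not overlap, although the higher YFP-positive and the lower YFP-negative library, both of mouse 2, were closer together than for Penk. The means were 543.8 ± 134 and 1311 ± 137 (SD, n = 2 each), and the YFP-positive level was 41.5% of the YFP-negative level. By limma, Ebi3 fell by 1.29 ± 0.33 (SE) on the log2 scale, with a Benjamini-Hochberg adjusted p of 0.000473. In the authors' deposited table the log2 fold change is -1.27 and the adjusted p-value 0.00824. Both genes were therefore among the lower genes, as were 69.5% of all listed genes, and 100% of the listed genes passed limma in either direction and had groups that did not overlap. A limma fit with mouse number as a block gave adjusted p = 0.00441 for Penk and 0.00443 for Ebi3. In that fit 98.9% of the listed genes passed, and 68.4% passed as lower.

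**Figure D1:**
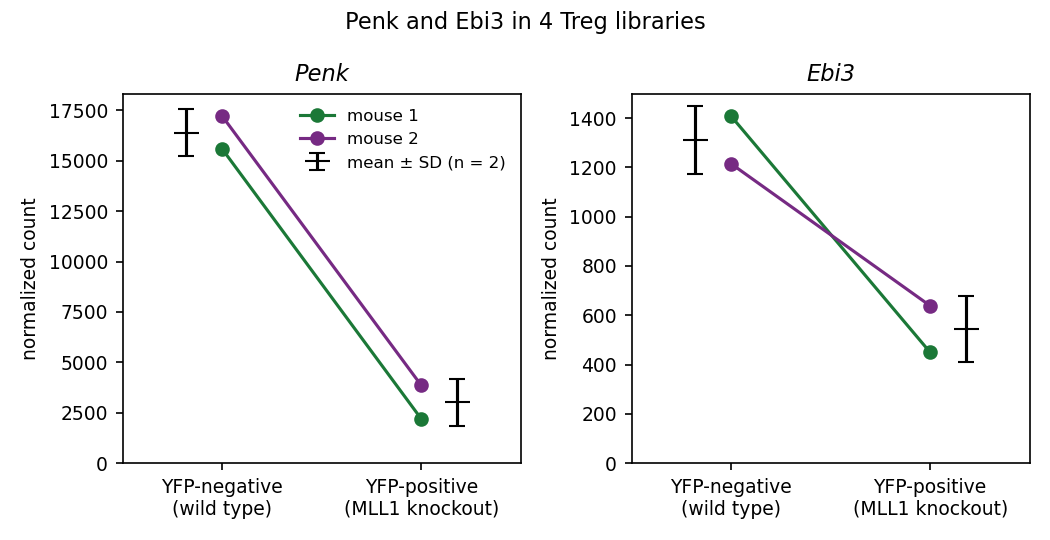
Normalized counts (vertical axes from 0) of Penk (left) and Ebi3 (right) in YFP-negative and YFP-positive Tregs; coloured points joined by a line are the 2 libraries of a mouse number, and black bars give the mean ± SD of 2 libraries. Every YFP-positive point lies below both YFP-negative points, and for Penk the YFP-positive mean is 18.4% of the YFP-negative mean against 41.5% for Ebi3.

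Within each mouse number the direction was the same, and the fall was larger in mouse 1 for both genes. Penk was 7.11-fold lower in the YFP-positive library of mouse 1 (95% interval 6.79 to 7.44) and 4.47-fold lower in that of mouse 2 (4.31 to 4.63). Ebi3 was 3.13-fold lower in mouse 1 (2.81 to 3.50) and 1.90-fold lower in mouse 2 (1.73 to 2.10). These exact conditional binomial intervals cover counting error only and rest on the inferred reads, for which few low values were present to check the step. The intervals of mouse 1 and mouse 2 did not overlap for either gene.

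The unequal falls followed mostly from the YFP-positive libraries. Penk was 1.76-fold higher in mouse 2 than in mouse 1 among YFP-positive Tregs and 1.10-fold higher among YFP-negative Tregs. For Ebi3 the corresponding ratios of mouse 2 to mouse 1 were 1.42 among YFP-positive and 0.863 among YFP-negative Tregs. Most of the other lower genes shifted in the same way. Of the 196 lower genes, 153 (78.1%) were higher in mouse 2 than in mouse 1 among YFP-positive Tregs, and 161 (82.1%) fell more in mouse 1. Of the 86 higher genes, 52 (60.5%) were lower in mouse 2 than in mouse 1 among YFP-positive Tregs, with a median log2 difference of -0.10. The part of this shift in the values of Penk and Ebi3 was not tested.

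**Figure D2:**
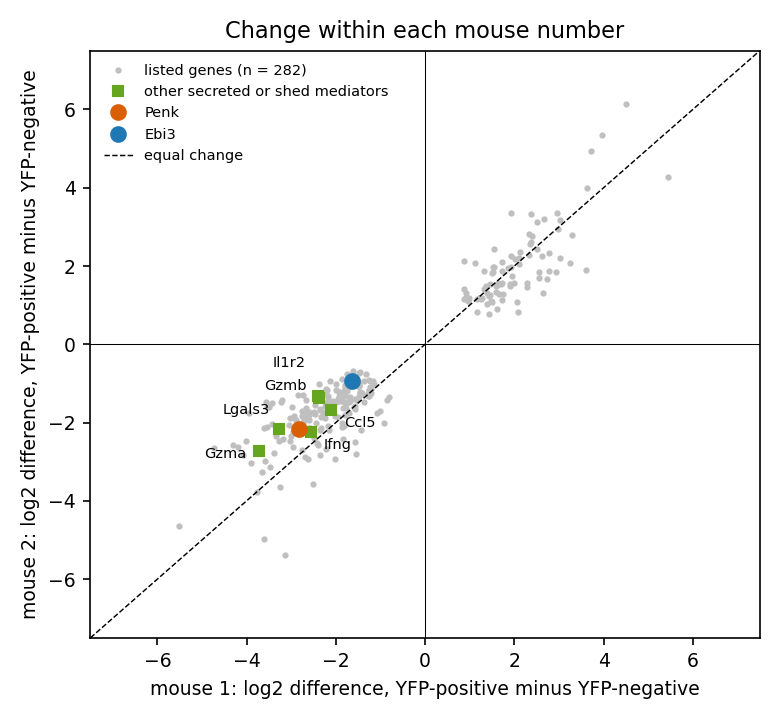
Log2 difference of YFP-positive minus YFP-negative Tregs, on log2(normalized count + 1), in mouse 1 (horizontal axis) and mouse 2 (vertical axis) for all 282 listed genes (grey), Penk (orange), Ebi3 (blue) and 6 other secreted or shed mediators (green squares); the dashed line marks equal change. Penk sits at -2.83 and -2.16 and Ebi3 at -1.65 and -0.93, both above the dashed line on the side of a larger fall in mouse 1.

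Penk was one of the most abundant transcripts of the list in YFP-negative Tregs. By normalized count it ranked first of 282 rows in YFP-negative mouse 2 and second in YFP-negative mouse 1, where Cd82, a tetraspanin gene, was higher at 17612. It ranked 25 in YFP-positive mouse 1 and 13 in YFP-positive mouse 2. Its share of the reads inferred for the listed genes was 4.82% and 6.06% in YFP-negative mice 1 and 2 (exact 95% intervals 4.75 to 4.90 and 5.97 to 6.14). In YFP-positive mice 1 and 2 the share was 1.07% and 1.77% (1.03 to 1.12 and 1.71 to 1.83). These intervals cover counting error only. The listed genes as a whole held fewer reads in YFP-positive mice 1 and 2 (196337 and 205521) than in YFP-negative mice 1 and 2 (329350 and 315764). The fall of 13371 normalized counts between group means was the largest absolute difference of any listed gene. In relative terms Penk was less extreme. Its log2 fold change in the authors' deposited table was the 43rd lowest of 196 lower genes, and its p-value was the 6th smallest of the table.

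Ebi3 stood in the upper part of the list throughout. Its rank was 53 in YFP-negative mouse 1, 61 in YFP-negative mouse 2, 87 in YFP-positive mouse 1 and 75 in YFP-positive mouse 2. Its normalized count was 4.49 and 3.89 times that of the median listed gene in YFP-negative mice 1 and 2, and 2.55 and 3.19 times in YFP-positive mice 1 and 2. The fall of 767 normalized counts was the 80th largest absolute difference, and in the authors' deposited table its log2 fold change was the 172nd lowest of 196. The inferred reads numbered 432 and 602 in YFP-positive mice 1 and 2 and 1436 and 1350 in YFP-negative mice 1 and 2, with Poisson 95% intervals of 392 to 475, 555 to 652, 1363 to 1512 and 1279 to 1424. These intervals, too, cover counting error only and rest on the inferred reads, which are not scaled by the size factors. They did not overlap between the groups, but those of the 2 YFP-positive libraries did not overlap each other either. In normalized counts the groups did not overlap for 100% of the listed genes. All ranks are positions among selected genes, not among all genes of the transcriptome.

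**Figure D3:**
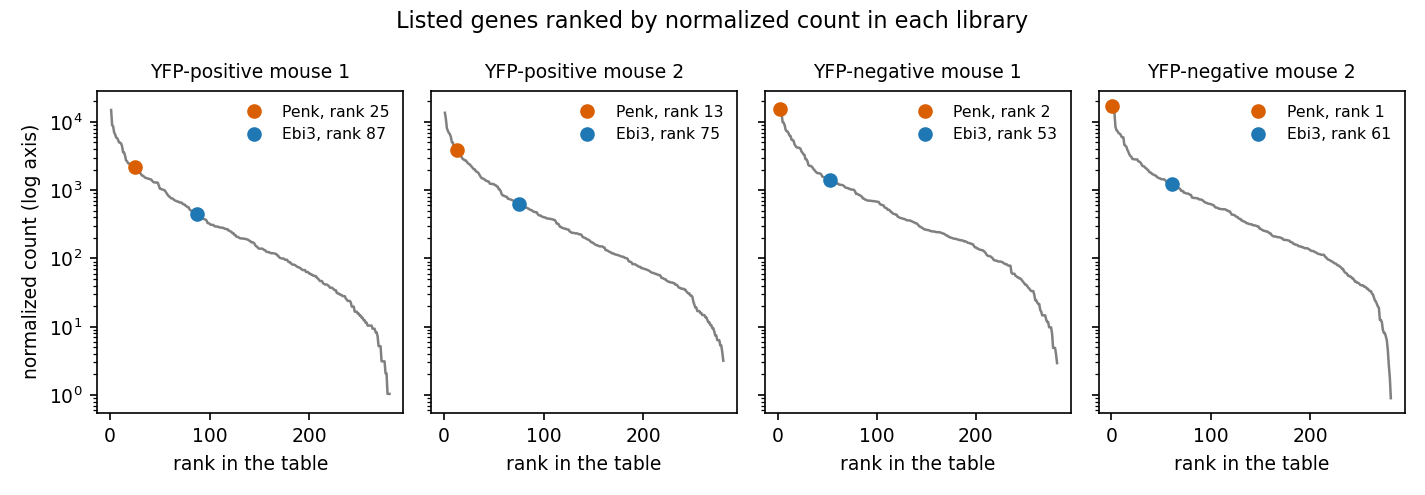
Normalized count (log axis) against rank for the 282 listed genes in each of 4 libraries, with Penk in orange and Ebi3 in blue; genes at 0 are not drawn. Penk moves from ranks 2 and 1 in YFP-negative Tregs to 25 and 13 in YFP-positive Tregs, and Ebi3 from 53 and 61 to 87 and 75.

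Per kilobase of gene length as deposited (1.634 kb for Penk, 1.154 kb for Ebi3), Penk was the more abundant of the pair in every library. Its length-scaled level was 7.81 and 10.0 times that of Ebi3 in YFP-negative mice 1 and 2. In YFP-positive mice 1 and 2 it was 3.44 and 4.26 times that of Ebi3. Without length scaling, the log2 difference between the genes' normalized counts, Penk minus Ebi3, was 3.65 ± 0.25 in YFP-negative and 2.44 ± 0.22 in YFP-positive Tregs (SD, n = 2 each), without overlap. The difference between the groups was -1.21, a larger fall of Penk than of Ebi3, and the value was close in the mice (-1.18 in mouse 1 and -1.23 in mouse 2, YFP-positive minus YFP-negative). A two-sided exact permutation test over libraries gave p = 0.333, which is the smallest p that 2 libraries against 2 allow.

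Each gene overlaps a gene on the opposite strand. In the GENCODE M21 annotation A830012C17Rik, on the plus strand, overlaps Penk, and Gm16712, on the minus strand, overlaps Ebi3. These genes held 8.60% of the 50-base stretches of the Penk transcripts and 15.9% of those of the Ebi3 transcript, and no other gene shared any. The strand setting of the counting is not given in the sources used here, so reads from the shared stretches cannot be assigned to a strand. Neither antisense gene has a value here.

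Penk and Ebi3 were the only members of their pathway lists with values here. Besides Penk, 0 of 8 opioid precursor and receptor genes, among them the receptor genes Oprd1 and Oprm1, were in the table, and 0 of 9 genes of enkephalin processing and breakdown. Besides Ebi3, 0 of 4 interleukin-12 family subunit genes, with the Ebi3 partners Il27 and Il12a among them, and 0 of 11 receptor and signalling genes of that family were listed. A gene outside the list has no value here, so these counts do not show that its level was alike in both groups.

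Other secreted or shed mediators of effector T cells with a value here were lower as well. They come from a list chosen with earlier results of these data known, so their shared direction is not independent evidence. Of 17 such genes, 6 were in the table and 6 of 6 fell, where 69.5% of all listed genes were lower. Their median log2 fold change by limma was -2.15, against -1.90 over the 196 lower genes and -1.51 over all 282. Gzmb, which encodes the cytotoxic protease granzyme B, stood at 296 and 406 in YFP-positive and at 1545 and 1051 in YFP-negative mice 1 and 2, and fell by 1.87 ± 0.34. Il1r2, the interleukin-1 decoy receptor gene, stood at 1394 and 2421 against 7303 and 6095, and fell by 1.86 ± 0.38. For neither gene did the groups overlap, and in both the YFP-positive library of mouse 1 was the lowest. Lgals3, which encodes the lectin galectin-3, fell by 2.72 ± 0.43, from 365 ± 10.2 to 58.5 ± 29.8 (SD, n = 2 each). Ifng, the interferon-gamma gene, fell by 2.41 ± 0.38, and Ccl5, a chemokine gene, fell by 1.89 ± 0.34. Gzma, which encodes granzyme A, was the scarcest of the 6, at 7.28 and 37.1 in YFP-positive and 109 and 253 in YFP-negative mice 1 and 2, and fell by 3.23 ± 0.58. Gzma is also the 1 of 7 CD8 T and natural killer cell markers with a value here. Outside that list, Klrg1 and Ctsw, which such cells can also express, went in opposite directions (-2.41 ± 0.34 and 1.72 ± 0.37). The part of such cells in the falls of these mediators was not tested. The other 11 genes, Il10 and Tgfb1 among them, have no value here.

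Among AP-1, ATF and CREB family genes, 4 of 20 were listed, and 2 of these fell while 2 rose. Of the motifs searched above, their products bind the AP-1 motif and the cyclic AMP response element. Neither had a match in the Ebi3 window, and the Penk promoter was not searched. Batf, an AP-1 factor gene of effector Tregs, stood at 3218 and 3774 in YFP-positive and 7716 and 8523 in YFP-negative mice 1 and 2, and fell by 1.22 ± 0.40. Maf fell by 1.60 ± 0.34. Jun, an AP-1 subunit gene, rose by 1.52 ± 0.39, and Bach2, a repressor gene that competes at AP-1 motifs, rose by 1.26 ± 0.35. Of 8 NF-kB pathway genes, 0 were in the table. Of 7 TNF receptor superfamily genes of Tregs, 2 were listed and both fell, against the same 69.5% of lower genes in the table. Tnfrsf9, which encodes 4-1BB, fell by 1.37 ± 0.41, and Tnfrsf1b, which encodes TNF receptor type II, fell by 1.09 ± 0.40. Tnfrsf1b missed the threshold in the fit with that block (limma adjusted p = 0.0700), as it did without YFP-positive mouse 1 (0.0522) or without YFP-negative mouse 1 (0.0709). When limma p was adjusted over 14239 genes, 3 of the genes in this paragraph missed the threshold, namely Batf, Tnfrsf9 and Tnfrsf1b (adjusted p = 0.177, 0.0890 and 0.469).

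Ebi3 is also expressed by B cells and antigen-presenting cells, so markers of these cells were examined beside it. Of 10 B cell markers, Igkc, the immunoglobulin kappa constant gene, was the 1 with a value. It stood at 249 and 280 in YFP-positive and at 1503 and 1072 in YFP-negative mice 1 and 2, and fell by 2.26 ± 0.34 on the log2 scale (limma adjusted p = 3.68e-07). It thus moved in the same direction as Ebi3, in both mouse numbers and without overlap of the groups. Cd72 and H2-Ob, which B cells also express, were not on the marker list and moved the other way. They rose by 1.56 ± 0.33 and 1.80 ± 0.33. Other listed genes were not sorted by expression in B cells. The part of B cells in the fall of Ebi3 was not tested. Of 6 plasma cell, 7 monocyte and macrophage and 8 dendritic cell markers, 0 were in the table, and they have no value here.

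The listed genes most like each of the pair were found by the distance between log2 profiles over the 4 libraries, each centred on its own mean. Nearest to Penk, of 240 protein-coding candidates, were Rab26, Cxcr6, Gpm6b, Cdkn2c and Selenom, at distances of 0.14 to 0.19 against a median of 1.29 over all other rows. This median, like that for Ebi3 below, includes the 86 genes that rose and is not a comparison with lower genes alone. Cxcr6, a chemokine receptor gene, stood at 309.9 and 582 in YFP-positive and 2054 and 2274 in YFP-negative mice 1 and 2. The cell cycle inhibitor gene Cdkn2c stood at 63.4 and 99.7 against 385 and 439. Like Penk, each of these 5 genes was lowest in YFP-positive mouse 1 and highest in YFP-negative mouse 2.

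Nearest to Ebi3 were Vamp5, Wls, Icos, Glrx and Cldnd1, at distances of 0.08 to 0.20 against a median of 1.18. Icos, which encodes a costimulatory receptor, stood at 4977 and 6618 in YFP-positive and 14182 and 13934 in YFP-negative mice 1 and 2. Wls, which encodes a carrier protein for Wnt secretion, stood at 990 and 1383 against 2856 and 2563. Like Ebi3, each of these 5 genes was lowest in YFP-positive mouse 1 and highest in YFP-negative mouse 1. With 4 libraries and genes selected for a difference between the same groups, the likeness is a description only. In both sets the genes were picked for their profiles, which itself favours sharing the lowest and the highest library. Icos missed the threshold in the blocked fit (limma adjusted p = 0.0770), and Wls and Glrx did not pass without YFP-positive mouse 1 (0.0534 and 0.0764). Adjusted over 14239 genes, Wls, Icos, Glrx and Cldnd1 did not pass (limma adjusted p = 0.0569, 0.235, 0.180 and 0.115).

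**Figure D4:**
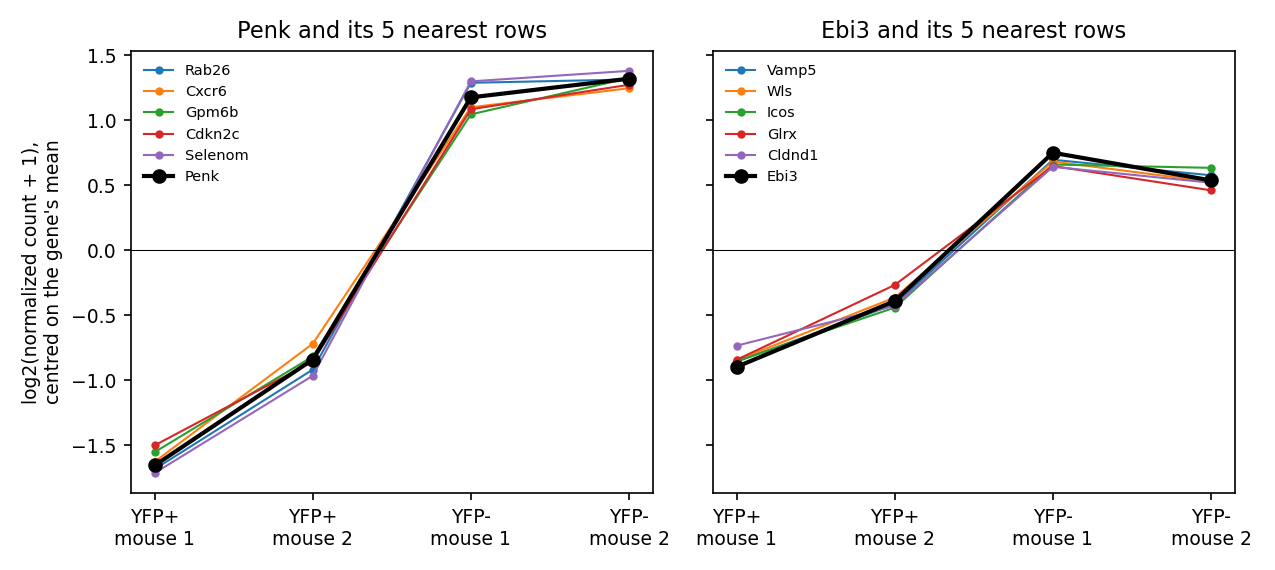
Log2(normalized count + 1), centred on each gene's mean over 4 libraries (vertical axis), by library (horizontal axis) for Penk (left, black) and Ebi3 (right, black) with the 5 listed genes of nearest profile in colours; the lines join libraries to guide the eye. In both panels every gene is lowest in YFP-positive mouse 1, and the Penk set is highest in YFP-negative mouse 2 and the Ebi3 set in YFP-negative mouse 1.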

How the data were processed

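The submitters' processing notes list DESeq2 1.16.1, featureCounts 1.5.0-p3, HISAT2 2.0.5 and StringTie 1.3.3b, with mm10 as the build, and the series' design text names DEGSeq 1.16.1. The deposited signal values are normalized counts, that is, reads per gene after the authors' division by each library's size factor. The deposited log2 fold changes, p-values and adjusted values come from the authors' own test. All 282 values of each library were whole multiples of 1 step within 0.001 reads, which gave size factors from 0.943 to 1.11. With few low values the reads are inferred, and only limma 3.58.1 in R 4.3.3 was used, on log2(value + 1), with a variance trend, no block and adjustment over 282 genes. This scale understates changes of low genes. The limma fit was tried on simulated independent counts that included unchanged genes and had no effect of mouse number. That setting differs from these selected genes, so the trial does not check the p-values given here. The inference of reads was not tested on simulated data. Set against each other, the authors' raw and adjusted p-values imply 14239 tested genes.

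Libraries were paired by the mouse number in the titles. The 2 libraries of mouse 1 deviated from their groups' means together (over 282 genes, which are not independent replicates, Pearson's r was 0.395 and Spearman's rho 0.411). With 2 libraries per group, the opposite pairing gives the same values with the sign reversed. The correlation therefore cannot check the pairing. The members and lists were chosen with earlier results of these data known. Named genes were Penk, Ebi3, list members with a row, and the 5 nearest profiles of each. Cd82, Cd72, H2-Ob, Klrg1 and Ctsw were named after their values were seen, and alternatives for them are not given.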

Additional observations from a re-analysis of the deposited data

How the results depend on the processing

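Penk and Ebi3 stayed lower and past an adjusted p of 0.05 by limma in all 11 tested alternatives each, with adjusted p from 1.88e-08 to 0.0138 for Penk and from 0.000308 to 0.0479 for Ebi3. With the mouse number as a replicate block, adjusted p was 0.00441 for Penk and 0.00443 for Ebi3, and 279 genes (98.9%) passed. Over 14239 genes it was 0.000106 and 0.0239, and 236 genes passed. Without the variance trend, limma adjusted p was 0.000464 for Penk and 0.00833 for Ebi3. Leaving out 1 library gave log2 fold changes from -2.90 to -2.09 for Penk and from -1.54 to -1.03 for Ebi3, with 257 to 269 genes passing, under the assumption that a group's single library varies as much as the other group does. The highest adjusted p of Ebi3, 0.0479, came without YFP-positive mouse 1. In mouse 1 or mouse 2 alone, with no test, Ebi3 was at -1.65 or -0.93. The Penk minus Ebi3 difference between groups was -1.21, and -1.39 to -1.03 without 1 library. Per kilobase, Penk ranked 15 and 10 in YFP-positive and 2 and 2 in YFP-negative mice 1 and 2, and Ebi3 ranked 52 and 42, and 28 and 30. Unscaled inferred reads, added after the data were seen, gave -2.65 and -1.45. Of 264 values of 24 other named genes under alternatives, 251 kept their call, 13 lost it and 0 reversed. The edgeR and DESeq2 fits were not run, because too few low values were present to rely on the inferred reads.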
